A study of Mus musculus with 2 samples.

Results

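C-type lectin receptors are proteins with a lectin fold that macrophages and related cells use to bind sugars, lipids and proteins of microbes, damaged cells and other host cells. The family was taken as all protein-coding genes whose symbol is Clec followed by a digit in the GENCODE M21 annotation, which gave 30 of the 54446 genes in the counts. Members were described by their counts, and ratios were given for the 16 with a mean count of at least 10 over the 2 libraries, called measured here. RNA came from macrophages grown from bone marrow of C57BL/6 mice, 1 library from cells given IL-36 gamma and 1 library from untreated control cells. IL-36 gamma is a cytokine of the interleukin-1 family, and the labels state neither its dose nor how long cells were exposed. They also do not state how many animals or cultures stood behind each library.

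Many of these receptors signal through the kinase Syk. Some carry a short tyrosine motif of their own, and others pair with the adaptor chains FcRgamma (Fcer1g) or DAP12 (Tyrobp). Syk then acts through the adaptor CARD9 with BCL10 and MALT1 to turn on NF-kB and cytokine genes. Other members carry an inhibitory tyrosine motif that recruits the phosphatases SHP-1 (Ptpn6) and SHP-2 (Ptpn11). In macrophages the family is best known for sensing fungi, mycobacteria and dead cells.

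The IL-36 gamma library held 17267900 counts in genes and the control library 17426367. Each ratio is the count with IL-36 gamma over the control count after scaling with TMM factors, and its range is a 95% exact (Clopper-Pearson) interval. With 1 library per group there was no replicate check and no test. The intervals cover counting error only, not the variation between cultures. Macrophage markers were abundant, with a summed level of 30700 CPM (counts over the scaled library size) in the IL-36 gamma library and 30640 CPM in the control. Of these 10 markers none was at 0 counts, 4 had an interval above 1 and 5 below it. All 10 averaged at least 1000 counts, and of protein-coding genes at that depth 44.1% lay above 1 and 22.9% below. Since this is bulk RNA, fewer cells of a type and less RNA per cell cannot be told apart.

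Clec4d (the receptor MCL) and the DCIR-type gene Clec4a1 were the most abundant members, and the DCIR-type genes had slightly more transcripts with IL-36 gamma, by factors of 1.19 to 1.32 where counts were high. Of the 16 measured members, 7 had an interval wholly above 1, 2 wholly below 1 and 7 included 1. The share of all 14379 measured genes above 1 was 20.2%, and the share below 1 was 16.5%. Abundant genes have narrow intervals, so abundant members were also set beside the 3367 protein-coding genes that averaged at least 1000 counts. Of those, 44.1% lay above 1 and 22.9% below 1, while of the 6 members at that depth 4 lay above 1, 1 below 1 and 1 included 1. A set of 6 genes is too small to read a departure from those shares. The median log2 ratio over the 16 measured members was 0.02, against 0.01 over all measured genes. With scaling by total counts the split of members was 6 above 1 and 4 below 1.

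The differences that counting error could resolve were small. The whole interval lay above 1.5 in 0 of 16 members, against 0.348% of all measured genes, and below the inverse of 1.5 in 0 of 16, against 0.529%. An interval wholly above 2 or below 0.5 was found in 0 of 16 members and in 0.167% of all measured genes. Among the abundant protein-coding genes the central 90% of ratios ran from 0.803 to 1.26. Of the 6 abundant members, only Clec4a3 lay outside that range, and just above it.

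**Figure D1:**
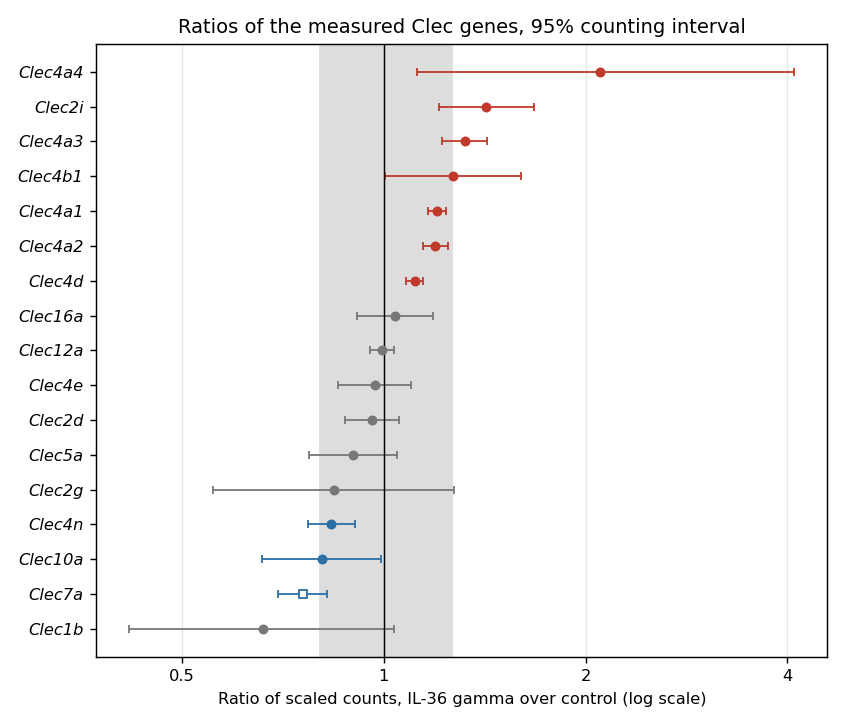
Ratio of scaled counts, IL-36 gamma over control, on a log axis for the 16 measured members (circles) and for Clec7a (open square), which the annotation does not class as protein-coding. Bars are 95% counting intervals, red and blue mark intervals wholly above and below 1, and the grey band from 0.803 to 1.26 holds the central 90% of ratios of abundant protein-coding genes. The 7 red members are led by Clec4a4, whose interval is wide because it rests on 32 counts with IL-36 gamma and 16 in the control.

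Levels between genes were compared per length, as TPM (counts over the union of annotated exons, scaled to a common total). TPM serves here to order genes within a library, since its scaling between libraries differs from that of the ratios. Clec4d was highest, at 1011 TPM with IL-36 gamma and 982 TPM in the control, and Clec4a1 came next, at 940 TPM with IL-36 gamma and 845 TPM in the control. Both stood far above Clec4a2 (243 TPM with IL-36 gamma and 220 TPM in the control). Clec4a3, Clec12a, Clec4n and Clec2d followed between 113 and 175 TPM in the IL-36 gamma library and between 127 and 153 TPM in the control. Within that group the order depended on the library. In the control the counting intervals of Clec4a3 and Clec12a overlapped, as did those of Clec12a and Clec4n, and with IL-36 gamma those of Clec4n and Clec2d overlapped. Clec4b1 had 32.7 TPM with IL-36 gamma and 27.9 TPM in the control. Clec4e, Clec2i and Clec5a had 13.5 to 17.8 TPM with IL-36 gamma and 13.5 to 17.2 TPM in the control, with overlap between Clec4e and Clec2i in the IL-36 gamma library and between Clec2i and Clec5a in the control. Clec10a, Clec16a, Clec4a4, Clec2g and Clec1b lay between 1.05 and 9.28 TPM with IL-36 gamma and between 1.71 and 12.4 TPM in the control.

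**Figure D2:**
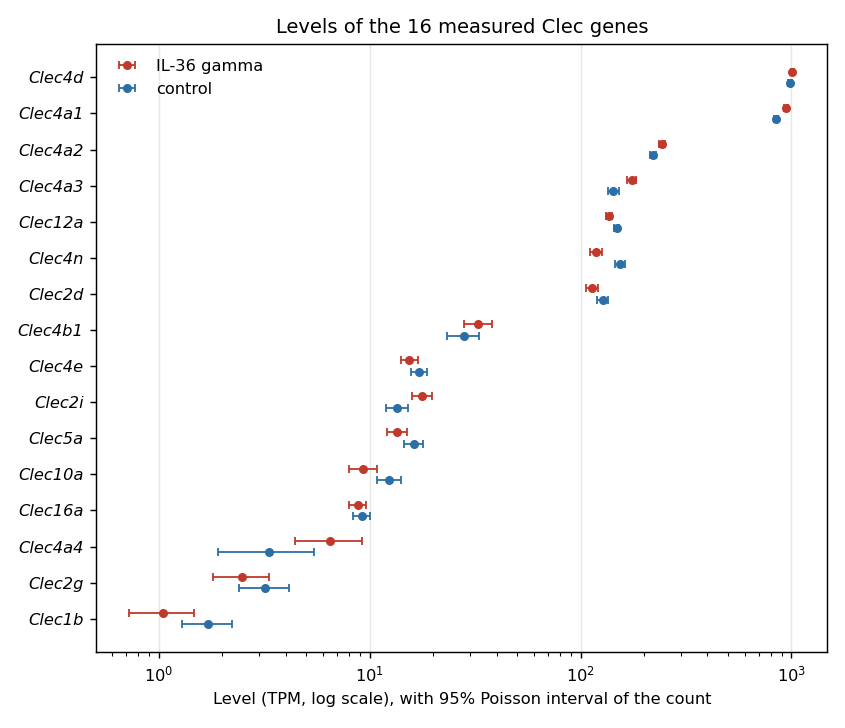
Level of each measured member in TPM on a log axis, with 95% Poisson intervals of the count, IL-36 gamma (red) above control (blue) in each row. Clec4d and Clec4a1 lie near 1000 TPM in both libraries, and Clec1b is lowest at 1.05 TPM with IL-36 gamma and 1.71 TPM in the control.

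The members sit mostly together in the genome. On the mm10 assembly, 22 of the 30 members and 14 of the 16 measured ones are on chromosome 6, and 19 of those 22 fall in a pair of clusters with gaps of at most 500000 bases. The first cluster runs from 122921848 to 123289870 (368 kb) and holds 9 members, of which 8 were measured, 6 were above 1 and 1 below 1, where the shares of all measured genes were 20.2% and 16.5%. Its genes Clec4a1, Clec4a2, Clec4a3, Clec4n and Clec4d averaged at least 1000 counts. Of protein-coding genes at that depth, 44.1% lay above 1 and 22.9% below. From the start of the cluster the order is Clec4a1, Clec4a3, Clec4a4, Clec4b1, Clec4a2, Clec4b2, Clec4n, Clec4d and Clec4e, all on the plus strand except Clec4e. The first 5 genes in that order all had intervals above 1, though those of Clec4b1, which began at 1.003, and of Clec4a4 did not stay above 1 under every setting. The second cluster, from 128662385 to 129452000 (790 kb), holds 10 members from Clec2h to Clec1a. Of its 5 measured members, 1 was above 1 and 0 below 1.

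**Figure D3:**
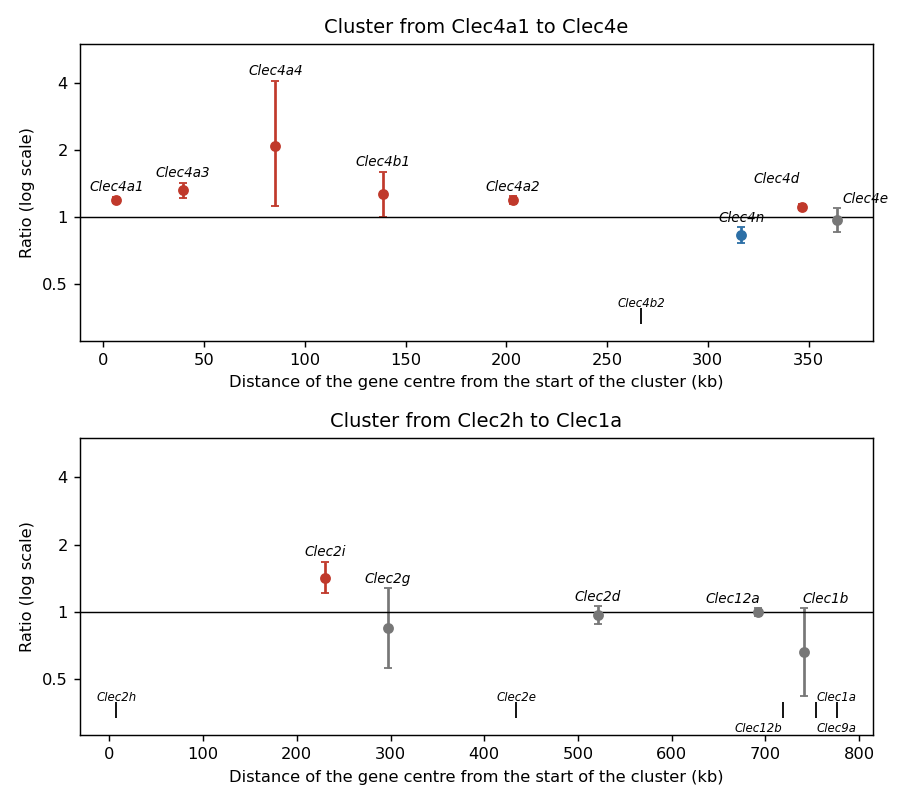
Ratio of each measured member, IL-36 gamma over control, on a log axis against the distance of the gene's centre from the start of its cluster on chromosome 6, in kb. Bars are 95% counting intervals, colours mark intervals above (red), below (blue) or including 1 (grey), and black ticks mark members too low to measure. In the upper cluster the first 5 genes are all red, from 1.19 for Clec4a2 to 2.10 for Clec4a4, and Clec4n lies at 0.835.

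The windows at the RefSeq gene starts of 5 members of the first cluster are shown because the DCIR-type genes lay above 1 together and because Clec4d and Clec4e are neighbours whose receptors bind the same ligand. Each runs from 250 bases before to 50 after the start on build GRCm38.p6, 5′ to 3′ on the gene's strand. Capitals mark matches to 4 motifs searched on both strands, where matches of different motifs may overlap, namely TGANTCA (AP-1 type), TTGCNNAA (C/EBP type), GAGGAAG (PU.1 type) and GAAANNGAA (interferon response type).
Clec4a1, chr6:122921598-122921897, plus strand: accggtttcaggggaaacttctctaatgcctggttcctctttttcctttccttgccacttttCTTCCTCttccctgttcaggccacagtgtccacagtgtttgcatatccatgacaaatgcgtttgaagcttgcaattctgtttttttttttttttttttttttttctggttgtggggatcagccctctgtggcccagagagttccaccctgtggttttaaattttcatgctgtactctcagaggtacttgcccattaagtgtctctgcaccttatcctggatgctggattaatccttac
Clec4a2, chr6:123122440-123122739, plus strand: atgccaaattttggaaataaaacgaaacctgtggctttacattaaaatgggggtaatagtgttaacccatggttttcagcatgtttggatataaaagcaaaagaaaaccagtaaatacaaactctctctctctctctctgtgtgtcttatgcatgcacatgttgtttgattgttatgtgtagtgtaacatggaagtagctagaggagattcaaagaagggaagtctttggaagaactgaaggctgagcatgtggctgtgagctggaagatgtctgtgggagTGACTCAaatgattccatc
Clec4b1, chr6:123049712-123050011, plus strand: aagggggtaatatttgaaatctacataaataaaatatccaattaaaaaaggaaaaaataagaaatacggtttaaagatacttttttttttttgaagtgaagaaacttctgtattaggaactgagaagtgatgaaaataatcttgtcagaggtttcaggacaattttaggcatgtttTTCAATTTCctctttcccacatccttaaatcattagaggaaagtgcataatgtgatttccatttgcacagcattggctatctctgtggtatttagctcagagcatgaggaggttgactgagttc
Clec4d, chr6:123261857-123262156, plus strand: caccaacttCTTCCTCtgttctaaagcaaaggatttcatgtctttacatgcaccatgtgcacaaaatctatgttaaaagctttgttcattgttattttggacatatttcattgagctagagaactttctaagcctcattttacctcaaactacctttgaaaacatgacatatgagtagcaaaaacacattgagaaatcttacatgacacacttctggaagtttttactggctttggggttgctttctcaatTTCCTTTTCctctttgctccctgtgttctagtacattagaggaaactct
Clec4e, chr6:123289822-123290121, minus strand: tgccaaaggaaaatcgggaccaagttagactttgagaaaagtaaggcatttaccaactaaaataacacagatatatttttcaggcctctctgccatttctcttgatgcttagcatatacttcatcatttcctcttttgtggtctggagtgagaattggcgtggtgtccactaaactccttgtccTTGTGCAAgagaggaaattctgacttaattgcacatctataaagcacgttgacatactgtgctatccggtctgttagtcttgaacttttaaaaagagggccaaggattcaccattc

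RefSeq windows were found for 24 of the 30 members, 26 windows in all, against 32851 windows over all genes. TGANTCA was present in 6 of the 26 windows, against 7.81% of all windows. TTGCNNAA was present in 6 of 26, against 10.8%, GAGGAAG in 7 of 26, against 13.6%, and GAAANNGAA in 7 of 26, against 8.56%. In the 15 windows of measured members, TGANTCA was present in 3, TTGCNNAA in 5, GAGGAAG in 5 and GAAANNGAA in 3. Windows are not all independent, since both windows of Clec2i overlap and hold the same TTGCNNAA match. The windows of the 5 genes shown differ in which motif they hold. Clec4a1 has GAGGAAG once, Clec4a2 has TGANTCA once, Clec4b1 has GAAANNGAA once, Clec4d has GAGGAAG and GAAANNGAA once each, and Clec4e has TTGCNNAA once. Both windows of Clec4a3, a gene that was also higher, hold no match to the 4 motifs. A match is a run of letters and not a binding site. The Clec4a2 window lies inside the span that GENCODE gives the gene, since GENCODE starts it at 123106428.

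The DCIR-type receptors of the first cluster were higher with IL-36 gamma. DCIR stands for dendritic cell immunoreceptor. Clec4a2, which is DCIR itself and carries an inhibitory motif (ENSMUSG00000030148, chromosome 6, 123106428 to 123143999), had 4526 counts with IL-36 gamma and 3982 in the control, a ratio of 1.19 (1.14 to 1.24). Clec4a1, also called DCIR4 (ENSMUSG00000049037, 122921848 to 122934619), had 9304 counts with IL-36 gamma and 8129 in the control, a ratio of 1.20 (1.17 to 1.24). Clec4a3, also called DCIR3 (ENSMUSG00000043832, 122952515 to 122969875), had 1476 counts with IL-36 gamma and 1172 in the control, a ratio of 1.32 (1.22 to 1.43). These 3 genes kept an interval above 1 under all 11 alternative settings of scaling, filter and interval that were run. Clec4a4, known as DCIR2 and as an inhibitory receptor of a dendritic cell subset (ENSMUSG00000059639, 122990367 to 123024105), had only 32 counts with IL-36 gamma and 16 in the control. Its ratio of 2.10 (1.12 to 4.10) was the highest in the family and the least precise among members above 1, and a 99% interval included 1.

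Clec4b1, or DCAR, is an activating relative that pairs with FcRgamma and binds mycobacterial lipids (ENSMUSG00000030147, 123049962 to 123071555). It had 163 counts with IL-36 gamma and 135 in the control, a ratio of 1.27 (1.003 to 1.60), and its interval reached to or below 1 under 6 of 11 alternatives. Its neighbour Clec4b2 had 4 counts with IL-36 gamma and 3 in the control. Paralogs limit the low values here. Of the 50-base words in its annotated transcripts, Clec4a4 shares 15.7% with another gene, Clec4b1 8.69% and Clec4a2 6.83%, while Clec4a1 and Clec4a3 share 0. Reads from shared stretches align to several places and could be left uncounted, so Clec4a4 and Clec4b1 are uncertain.

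Within the cluster the ratios were compared with each other, which needs no scaling between libraries. The ratio of Clec4a1 over that of Clec4a2 was 1.01 (0.956 to 1.06), so no difference was detectable at this depth. Clec4a3 had the highest ratio of the 3, with Clec4a1 at 0.909 of it (0.836 to 0.988) and Clec4a2 at 0.902 of it (0.826 to 0.986). These differences were near the limit of the depth. With a trend on gene length removed Clec4a2 stood at 0.929 of Clec4a3 (0.851 to 1.02), and the 99% intervals of both comparisons included 1. Clec4b1 could not be told apart from the other 3, with intervals that all included 1 and reached from 0.741 to 1.34 in all.

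Activating receptors for fungal and mycobacterial ligands did not move together. Clec4d, or MCL, pairs with FcRgamma and binds the mycobacterial cord factor (ENSMUSG00000030144, chromosome 6, 123262111 to 123275265). It had 10273 counts with IL-36 gamma and 9697 in the control, a ratio of 1.11 (1.08 to 1.14). Clec4e, or Mincle, its neighbour and partner for the same ligand (ENSMUSG00000030142, 123281789 to 123289870), had 487 counts with IL-36 gamma and 527 in the control, a ratio of 0.97 (0.856 to 1.10). The ratio of Clec4d over that of Clec4e was 1.15 (1.01 to 1.30), a difference that did not hold under every setting. It was 1.05 (0.924 to 1.19) with a trend on gene length removed and 1.06 (0.936 to 1.21) with a trend on expression level removed, and its 99% interval included 1. With the trend on expression removed, Clec4d alone stood at 1.03 and its interval included 1.

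Clec4n, or Dectin-2, which binds fungal mannans and pairs with FcRgamma (ENSMUSG00000023349, 123229843 to 123247021), was lower with IL-36 gamma. It had 1069 counts with IL-36 gamma and 1344 in the control, a ratio of 0.835 (0.770 to 0.905), and kept this side of 1 under all 11 alternatives. Clec5a, or MDL-1, which pairs with DAP12, had 329 counts with IL-36 gamma and 384 in the control, a ratio of 0.899 (0.774 to 1.04). Clec7a, or Dectin-1, the receptor for fungal beta-glucan, is classed as a polymorphic pseudogene in GENCODE M21 and so falls outside the rule. It had 948 counts with IL-36 gamma and 1315 in the control, a ratio of 0.757 (0.695 to 0.823), lower than any measured member except Clec1b. Clec7a and Clec4n were thus both lower with IL-36 gamma, while Clec4d lay above 1 and the intervals of Clec4e and Clec5a included 1.

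Clec12a, or MICL, is an inhibitory receptor that recognises uric acid crystals (ENSMUSG00000053063, chromosome 6, 129342691 to 129365303). It had 4797 counts with IL-36 gamma and 5069 in the control, a ratio of 0.993 (0.955 to 1.03). Its direction depended on the correction, since its interval lay below 1 by total counts (0.955) and with a trend on expression removed (0.934), and above 1 with a trend on GC content removed (1.04). The ratio of Clec7a over that of Clec12a was 0.762 (0.694 to 0.836). Clec12b, another inhibitory receptor, had 0 counts with IL-36 gamma and 5 in the control.

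Clec10a, or MGL1, an endocytic receptor often used as a marker of alternatively activated macrophages (ENSMUSG00000000318, chromosome 11, 70156197 to 70170834), was lower. It had 171 counts with IL-36 gamma and 222 in the control, a ratio of 0.808 (0.658 to 0.991). Its upper bound is close to 1, and it was not below 1 with a 99% interval or with a trend on expression removed. Of its 50-base words 9.02% are shared with another gene, most of them with its paralog Mgl2, which had 1 count with IL-36 gamma and 4 in the control.

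Ligands for natural killer cell receptors were represented by Clec2d and Clec2i. Clec2d, or Clr-b, which engages inhibitory NKR-P1 receptors, had 873 counts with IL-36 gamma and 953 in the control, a ratio of 0.962 (0.876 to 1.05). Clec2i, or Clr-g (ENSMUSG00000030365, chromosome 6, 128887588 to 128898167), had 351 counts with IL-36 gamma and 259 in the control. Its ratio of 1.42 (1.21 to 1.68) was the highest among members with at least 100 mean counts, and it stayed above 1 under all 11 alternatives. Clec2g had 45 counts with IL-36 gamma and 56 in the control, a ratio of 0.843 (0.557 to 1.27). Of its 50-base words Clec2i shares 4.13% with other genes and Clec2g 3.90%, more with each other than with any other gene.

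Clec16a had 468 counts with IL-36 gamma and 473 in the control, a ratio of 1.04 (0.912 to 1.18). It carries the family's prefix but encodes an endosomal protein known for a role in mitophagy. Clec1b, or CLEC-2, the podoplanin receptor of platelets, had 34 counts with IL-36 gamma and 54 in the control, a ratio of 0.661 (0.417 to 1.03). Among platelet and megakaryocyte markers, 3 of 5 measured genes were below 1 and 0 above, against 16.5% and 20.2% of all measured genes. The other 2 had higher counts with IL-36 gamma and intervals that included 1. Gp1ba had 29 counts with IL-36 gamma and 20 in the control, and Itga2b had 25 with IL-36 gamma and 14 in the control. Below the limit for measured genes, Gp9 had 5 counts with IL-36 gamma and 2 in the control, and Gp6 had 0 in each. The summed level of the listed markers was 281.6 CPM with IL-36 gamma and 338.3 CPM in the control. Nearly all of it was Pf4, at 4423 counts with IL-36 gamma and 5535 in the control. The part of platelets or megakaryocytes in the Clec1b value was not tested. Clec1b and Clec9a overlap on the same strand by 184 exonic bases.

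The remaining 14 members fell below a mean count of 10. Just inside that limit was Clec4a4, with 32 counts with IL-36 gamma and 16 in the control. Just outside it was Clec9a, a receptor for actin of dead cells on cross-presenting dendritic cells, with 4 counts with IL-36 gamma and 10 in the control. The secreted growth factor gene Clec11a had 6 counts with IL-36 gamma and 7 in the control, and Clec1a had 6 in each library. Clec4f, known from Kupffer cells, had 6 counts with IL-36 gamma and 1 in the control, and Clec4g, known from liver sinusoidal endothelium, had 1 in each. The plasma protein gene Clec3b (tetranectin) had 0 counts with IL-36 gamma and 2 in the control. Clec2h and Clec2l each had 0 counts with IL-36 gamma and 1 in the control. The 4 members at 0 in both libraries were Clec3a, Clec2e, Clec18a and Clec14a, the last known from endothelium. A count of 0 allows a level of up to 0.177 CPM in the IL-36 gamma library and 0.169 CPM in the control, the level of 3 counts. In all, 22 members had at least 1 count with IL-36 gamma and 26 in the control. Beside these members, the pseudogene Clec2f had 6 counts with IL-36 gamma and 0 in the control, and the pseudogene Clec2j had 0 in each.

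Monocytes and neutrophils share some of these receptors, so markers of other cell types were described. The neutrophil, monocyte and conventional dendritic cell lists each held genes above 1 and genes below 1. Over all measured genes 20.2% were above 1 and 16.5% below 1. Of 14 measured neutrophil markers 8 were above 1 and 1 below 1, with a summed level of 512.3 CPM with IL-36 gamma and 426.7 CPM in the control, and 0 of the 15 listed were at 0. The 8 above were S100a8, S100a9, Lcn2, Ngp, Ltf, Camp, Prtn3 and Elane. Their ratios ran from 1.53 for Ltf to 7.70 for Elane, which had only 22 counts with IL-36 gamma and 3 in the control. The 1 below was Mmp8, at 0.663, and Csf3r, at 0.994, was among the 5 that included 1. Ly6g, below a mean count of 10, had 9 counts with IL-36 gamma and 8 in the control. Of 10 monocyte markers 6 were above 1 and 2 below 1, with 360.2 CPM with IL-36 gamma and 390.4 CPM in the control. The 6 above were Chil3, Hp, Ccr2, Ms4a4c, Ly6c2 and Plac8, from 1.275 for Ccr2 to 2.83 for Plac8. The 2 below were F13a1, at 0.581, and Fn1, at 0.559. F13a1 made up much of the sum, at 123.7 CPM with IL-36 gamma and 212.8 CPM in the control. For conventional dendritic cells, 2 of 3 measured markers were above 1 and 1 below 1, with 50.7 CPM with IL-36 gamma and 59.3 CPM in the control. The measured markers were Fscn1 at 1.42, Batf3 at 1.34 and Itgax at 0.541. Among those below a mean count of 10, Xcr1 had 3 counts with IL-36 gamma and 11 in the control. Ccr7 had 12 with IL-36 gamma and 3 in the control, Zbtb46 had 5 in each library, and Flt3 had 2 with IL-36 gamma and 1 in the control. Mast cell and basophil markers summed to 8 counts with IL-36 gamma and 4 in the control, with 6 of 7 at 0 in both, and lymphocyte markers to 9 counts with IL-36 gamma and 19 in the control, with 4 of 8 at 0 in both. The part of other cell types in the lectin ratios was not tested.

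Genes of the Syk and CARD9 pathway did not all go one way, and the adaptor chain genes Fcer1g and Tyrobp lay above 1 while Malt1 and Cbl lay below it. Of 22 listed genes, all measured, 6 had an interval above 1, 4 below 1 and 12 included 1, with a median log2 ratio of 0.02. The shares of all measured genes were 20.2% above 1 and 16.5% below 1. The split was 4 above and 6 below by total counts or with a trend on expression removed, and 11 above and 3 below with a trend on gene length removed. The adaptor chain gene Fcer1g had 12554 counts with IL-36 gamma and 10335 in the control, a ratio of 1.27 (1.24 to 1.31). Tyrobp had 16160 counts with IL-36 gamma and 15076 in the control, a ratio of 1.12 (1.10 to 1.15). A further adaptor chain gene, Hcst (DAP10), had 161 counts with IL-36 gamma and 198 in the control, at 0.854 (0.689 to 1.06). The Src family kinase gene Lyn had a ratio of 1.08 (1.05 to 1.12), which became 1.01 with an interval that included 1 when the expression trend was removed. The exchange factor gene Vav1 stood at 1.26 (1.22 to 1.30). Syk itself had 11801 counts with IL-36 gamma and 12125 in the control, a ratio of 1.02 (0.996 to 1.05). Its interval lay above 1, at 1.12, with the length trend removed and below 1, at 0.938, with the expression trend removed. Card9 had 799 counts with IL-36 gamma and 789 in the control, a ratio of 1.06 (0.962 to 1.17). Lower were the paracaspase gene Malt1, with 239 counts with IL-36 gamma and 371 in the control, at 0.676 (0.572 to 0.798), the ubiquitin ligase gene Cbl at 0.760 (0.723 to 0.799), Src at 0.832 (0.719 to 0.962) and the transcription factor gene Nfatc2 at 0.890 (0.818 to 0.967). The interval of Nfatc2 included 1 with the length trend removed, at 0.993, and that of Src at the 99% level.

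Of 3 inhibitory phosphatase genes, Ptpn6 (SHP-1) had 11116 counts with IL-36 gamma and 10028 in the control, a ratio of 1.16 (1.13 to 1.19). Ptpn11 (SHP-2) had a ratio of 0.951 (0.896 to 1.01), and Inpp5d (SHIP-1) 0.958 (0.922 to 0.996). The ratio of Inpp5d turned to 1.03, with an interval that included 1, when a trend on gene length was removed. None of the measured Clec members has exonic bases under exons of the opposite strand. Ptpn6 has 195 of 2802, Lyn 248 of 4073 and Card9 87 of 2293, and the labels do not state whether counting used strand.

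Among lectin domain genes without the Clec prefix, the mannose receptor gene Mrc1 and 3 others were lower with IL-36 gamma and Cd72 was higher. Of 43 listed genes, 15 were measured, 1 had an interval above 1, 4 below 1 and 10 included 1, with a median log2 ratio of -0.14. The shares of all measured genes were 20.2% above 1 and 16.5% below 1. The mannose receptor gene Mrc1 had 1940 counts with IL-36 gamma and 3030 in the control, a ratio of 0.672 (0.635 to 0.712). The scavenger receptor gene Colec12 had 530 counts with IL-36 gamma and 836 in the control, at 0.665 (0.596 to 0.743). Cd209f, a mouse relative of DC-SIGN, had 38 counts with IL-36 gamma and 78 in the control, at 0.511 (0.338 to 0.763), and Cd93 had a ratio of 0.779 (0.752 to 0.807). Cd72, an inhibitory receptor, was higher, with 15976 counts with IL-36 gamma and 13015 in the control, at 1.29 (1.26 to 1.32). Of its 3422 exonic bases 1423 lie under exons of the opposite strand, so reads of an antisense partner could contribute. Another 14 listed genes, among them Cd209a to Cd209d, were at 0 in both libraries.

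**Figure D4:**
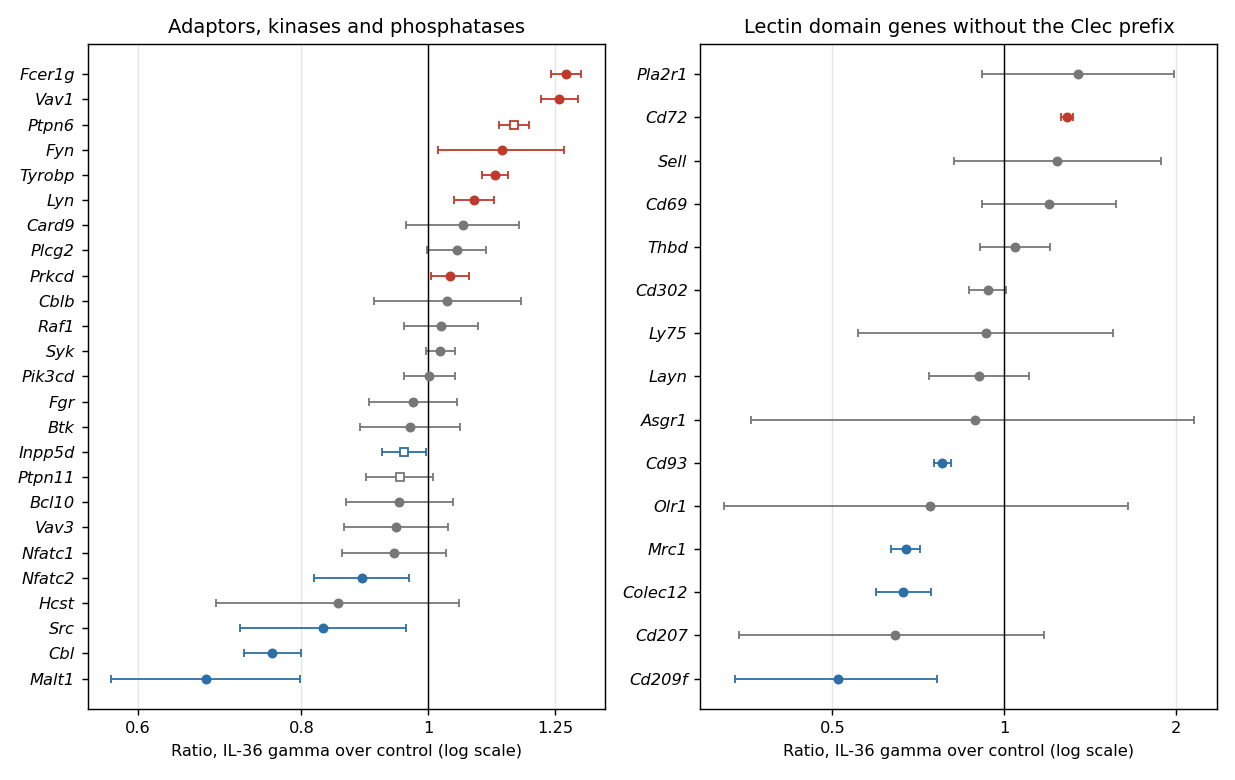
Ratio of scaled counts, IL-36 gamma over control, on log axes with 95% counting intervals, for 22 pathway genes (circles) and 3 phosphatase genes (open squares) on the left and 15 measured lectin domain genes without the Clec prefix on the right. Red and blue mark intervals wholly above and below 1, with Fcer1g highest on the left at 1.27 and Malt1 lowest at 0.676, and on the right Cd72 at 1.29 is the only one above 1.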

How the data were processed

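Messenger RNA was sequenced in 2 libraries, 1 of macrophages given IL-36 gamma and 1 of control macrophages. The values are raw counts per Ensembl gene that the authors deposited, not normalized. The submitters' processing notes name STAR 2.5.0a, HTSeq, FastQC 0.11.8 and Trim Galore 0.6.1 with build mm10; settings, annotation and strand are not given there. Of all counted reads, the 5 rows that name no gene took 55.1% in the IL-36 gamma library and 55.6% in the control and were left out.

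Of 54446 gene IDs, 54409 were matched to GENCODE M21 without their version. Counts were scaled with TMM factors of edgeR 4.0.16 in R 4.3.3 (0.981 for IL-36 gamma and 1.02 for control). With no residual degrees of freedom, no count test was run. Ratios have exact Clopper-Pearson intervals, and median log2 ratios use a prior count of 2. The code was tested on simulated data. Intervals and the floor of 3 counts cover counting error only, since copies from amplification are not independent molecules. Comparisons of 2 ratios used an exact conditional odds ratio (8 compared). Other settings tried were scaling by total counts, by size factors of DESeq2 1.42.0, upper quartile and protein-coding TMM scaling, trends on length, GC content or expression removed (lowess, span 0.3, centred at its median), other filters, priors and interval levels, and the omission of overlapped genes or of Clec16a. The members, gene lists and tests were chosen with earlier results of these data known. Each measured member is named; of each other list, up to 8 genes with an interval on 1 side of 1, ranked by the bound nearest 1, are named, with Syk, Card9, Fcer1g, Tyrobp, Ptpn6 and Mrc1. Clec7a, Ptpn11, Mgl2, Prkcd, Hcst, marker genes and listed genes at 0 were named outside that rule, after their values were seen. Promoter windows are RefSeq's on GRCm38.p6; protein sequences were not used here. A gene of the Syk and CARD9 list is not reported here and is in none of its counts. Python 3.11.15, numpy 2.4.6, pandas 2.3.3, scipy 1.17.1, statsmodels 0.14.6 and matplotlib 3.10.9 were used.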

Additional observations from a re-analysis of the deposited data

How the results depend on the processing

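The counts of members above 1 stayed between 5 and 8 under all 11 alternatives that bear on them, and the median log2 ratio of the members stayed between -0.03 and 0.06 under 14. The number of members below 1 was 2, and became 4 by total counts, where Clec12a and Clec1b joined, 3 with the length trend removed, where Clec2d joined at 0.910, and 1 with a 99% interval, where Clec10a was lost. With the expression trend removed it was 2, with Clec12a in place of Clec10a. No member had its whole interval past 1.5-fold or 2-fold under any of the 11 alternatives. Of the Syk and CARD9 genes, 11 in place of 6 were above 1 with the length trend removed, and 4 by total counts or with the expression trend removed, where 6 in place of 4 were below 1. Of the other lectin domain genes, 2 were above 1 with the length trend removed and 0 without genes overlapped on the opposite strand, which leaves Cd72 out. Of the phosphatases, 2 were below 1 by total counts, DESeq2 size factors, protein-coding TMM or with the expression trend removed, 0 were below 1 with the length trend removed or a 99% interval, and 0 were above 1 without overlapped genes, which leaves Ptpn6 out. Of single ratios, Clec12a turned to 1.04 with the GC trend removed, Inpp5d to 1.03 with the length trend removed and Syk to 0.938 with the expression trend removed. Prkcd, at 1.04 with the settings of the report, turned to 0.968 with the expression trend removed and 0.999 by total counts, and its interval included 1 under DESeq2, upper quartile or protein-coding TMM scaling, with the GC trend removed and at the 99% level. The ratio of Clec4d over Clec4e was 1.05 with the length trend removed and 1.06 with the expression trend removed, and that of Clec4a2 over Clec4a3 was 0.929 with the length trend removed, all with intervals that included 1. A 99% interval for these comparisons, added after the data were seen, included 1 for Clec4d over Clec4e (1.15), Clec4a1 over Clec4a3 (0.909) and Clec4a2 over Clec4a3 (0.902). The cause was not tested. Of 390 single ratios under alternatives, 359 kept their call (above 1, below 1 or including 1). Without crossing 1, 21 lost their call and 5 gained one, and a further 5 lost or gained one while crossing 1. The ratio crossed 1 in 10, of which 5 had an interval that included 1 before and after and 5 are those named above as turned. No paired analysis was possible because each group has 1 library. Depth limits members under about 100 counts most, where intervals span more than 1.5-fold.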
